A study of Populus alba x Populus glandulosa with 12 samples.

Results

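Auxin acts on leaf growth and vein formation through a short chain of proteins. Of the 34749 genes in the table, 132 were taken by the wording of their description, and not all of them act in that chain. These genes were taken by a text rule. The description of the paired Arabidopsis gene contains "auxin" or "indole-3-acetic", whatever the case, and no field of the gene's entry contains SAUR. The words alone matched 206 genes, of which 74 were small auxin up RNA genes and were left out. The 132 genes fell into 18 Aux/IAA repressors, 41 auxin response factors (ARFs), 4 receptor genes of the TIR1/AFB family, 14 GH3 genes, 29 transport genes and 26 others. The role of each was set by the paired Arabidopsis locus and otherwise by the description.

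The RNA came from leaves of the hybrid poplar Populus alba x Populus glandulosa. The groups compared were OE line 2 and OE line 7, which overexpress PagSUPa, a C2H2-type zinc finger protein, and a nontransgenic control labelled CK. Each group had 4 libraries. Age, growth conditions, the promoter that drives the transgene and the number of plants behind a library are not given in the labels, and each overexpression line is described only by its number. The labels number the replicates but do not tie them to separate plants, so a p-value here measures the spread between libraries, which could be technical.

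Auxin is bound by F-box receptors of the TIR1/AFB family together with Aux/IAA proteins, which are then degraded. Aux/IAA proteins otherwise hold ARFs, the transcription factors that bind auxin-responsive promoters, in a repressed state with co-repressors of the TOPLESS family. GH3 enzymes join auxin or jasmonate to amino acids, and PIN and AUX1/LAX carriers move auxin between cells, so that their placement sets its distribution in a leaf and the course of its veins.

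Values are TPM, a share of all transcripts in a library corrected for transcript length. Depth is unknown, so no counting interval can be given. Between 22710 and 24607 genes reached 1 TPM in a library. No gene name or description in the table mentions PagSUPa or SUPERMAN, so the transgene cannot be told from the names. A gene paired with ZFP11, a zinc finger protein related to SUPERMAN, Potri.002G041700, lay between 1247 and 1714 TPM in line 2, between 1210.3 and 1551 TPM in line 7, and at or under 0.112 TPM in CK, with 3 CK libraries listed at 0. Gene names are those of the paired Arabidopsis gene and do not show that the poplar gene is its only counterpart. Values of near-identical copies are uncertain, because Salmon divides shared reads between them. Log2 fold changes are differences of mean log2(TPM + 1), OE minus CK, and understate the change of genes with low TPM.

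The libraries did not stand alike within their groups. Median ratio size factors were 0.888 to 1.06 in the 8 OE libraries, against 1.20 and 1.18 in CK replicates 1 and 2 and 0.975 and 0.99 in CK replicates 3 and 4. Each result is therefore given also without CK replicates 1 and 2 where that ends the call, which leaves 2 control libraries. Line 7 replicate 2 held the highest TPM of the 8 OE libraries for 53 of the 99 tested auxin genes (53.5%), against 25.6% of all tested genes. Mesophyll markers marked all libraries as leaf: 15 such genes summed to between 40140 and 80462 TPM in OE libraries and between 80030 and 93534 TPM in CK libraries, and none of them was at 0 everywhere. Of the 14 tested mesophyll markers, 2 rose and 5 fell.

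Over both OE lines together, most tested markers of veins and of dividing cells were called lower. Of all tested genes, 34.0% were called lower and 22.1% higher. Of 19 tested phloem markers, 17 fell and 0 rose, and the 23 genes of that list summed to 105 to 442 TPM in OE libraries and 382 to 795 TPM in CK libraries. Of 13 tested xylem and procambium markers, 11 fell and 0 rose, with sums of 44.8 to 155 TPM in OE libraries and 175 to 277 TPM in CK libraries. 1 gene of that list was at 0 in all OE libraries. Of 11 tested division markers, 10 fell and 0 rose, with sums of 8.50 to 38.2 TPM in OE libraries and 25.3 to 103 TPM in CK libraries. Line 2 alone had 16 phloem, 10 xylem and 7 division markers lower, where 32.4% of all genes fell. Line 7 alone had 10, 9 and 3 lower, where 24.8% of all genes fell. All 8 OE libraries lay below the CK range for 3 phloem, 3 xylem and 0 division markers, against 19.1% of all genes. Line 7 replicate 2 was the highest OE library for the phloem sum, at 442 TPM, the xylem sum, at 155 TPM, and the division sum, at 38.2 TPM. Without CK replicates 1 and 2, 2 of 17 tested phloem markers, 3 of 13 xylem markers and 0 of 9 division markers fell, against 12.6% of all genes. Leaving out CK replicate 1 alone left 10 phloem, 8 xylem and 1 division marker lower, and leaving out CK replicate 2 alone left 6, 8 and 1. In bulk leaf RNA, fewer cells of a type and less RNA per cell cannot be told apart, and the part of these cell types in the auxin results below was not tested.

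Of the 132 auxin genes, 99 reached at least 1 TPM in at least 4 libraries and were tested. The other 33 stayed at or under 10.6 TPM in every library, and none of them was at 0 throughout. In both OE lines against CK, 11 auxin genes rose, 46 fell and 42 did not pass the threshold of an adjusted p of 0.05 in limma. The calls made up 57.6% of the tested auxin genes, against a background of 56.1% of all 24926 genes tested (22.1% higher and 34.0% lower), so the share called was close to that of all genes. Their median log2 fold change was -0.42, against -0.13 for all genes. At a change of at least 1 on the log2 scale, 8 rose and 30 fell, against 9.1% and 10.9% of all genes. All 8 OE libraries lay above the CK range for 7 auxin genes and below it for 28, against 14.6% and 19.1% of all genes.

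Line 2 against CK had 11 higher and 43 lower auxin genes (54.5%), where 51.2% of all genes were called (18.8% higher, 32.4% lower). Line 7 against CK had 10 higher and 35 lower (45.5%), where 43.8% of all genes were called (18.9% higher, 24.8% lower). These comparisons share the CK libraries. Of the genes called over both lines together, 10 of the 11 higher and 33 of the 46 lower were also called in each line alone. Line 7 against line 2 gave no call among auxin genes or among all genes (0.0%) in limma. At an unadjusted p under 0.05 it gave 0 auxin genes and 1.68% of all genes. The differences between the lines ran from -0.45 to 0.71 on the log2 scale, with a median size of 0.174. Median ratio scaling, which brought the median of all genes to -0.01, gave 16 higher and 42 lower auxin genes with a median of -0.29, and no called auxin gene changed sign. This scaling called 57.5% of all genes (29.0% higher, 28.5% lower). Without CK replicates 1 and 2, 5 rose and 23 fell among 97 tested auxin genes, where 28.5% of all genes were called (15.8% higher, 12.6% lower), and 27 of the 28 had been called before with the same sign.

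**Figure D1:**
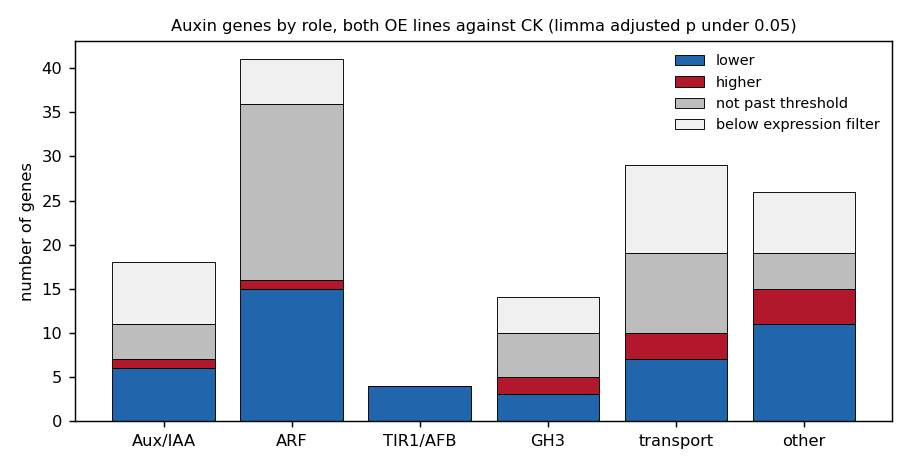
Number of auxin genes in each role (bar height) that were lower, higher, not past the threshold or below the expression filter in both OE lines against CK. Lower calls outnumber higher ones in every role, from 15 lower and 1 higher among ARFs to 3 lower and 2 higher among GH3 genes.

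**Figure D2:**
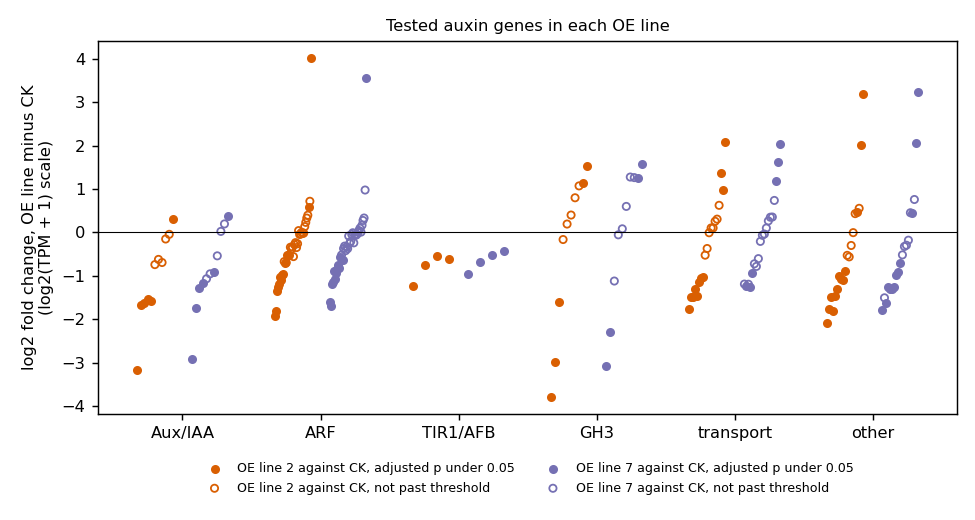
Log2 fold change of each tested auxin gene (y axis, log2(TPM + 1) scale) by role, with OE line 2 minus CK in orange and OE line 7 minus CK in purple. Filled points passed an adjusted p of 0.05. The ARF15-paired gene stands at the top, at 4.02 in line 2 and 3.56 in line 7, and the DFL2-paired gene at the bottom, at -3.79 and -3.07.

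All 4 tested receptor genes under the rule fell in OE leaves, where 34.0% of all genes fell, and they fell in each line alone. They are pairs of copies of AFB2 and of AFB5, F-box proteins that bind auxin. Their summed level was 212.5 ± 18.9 TPM in line 2, 238 ± 20.6 TPM in line 7 and 403 ± 46.6 TPM in CK (SD, n = 4 each). The AFB2 gene with the higher level, Potri.001G323100, had 92.8, 74.1, 91.7 and 74.2 TPM in line 2, 108, 116, 95.3 and 82.8 TPM in line 7, and 221, 206, 167 and 192 TPM in CK. The highest OE library lay well below the lowest CK library. The log2 fold change was -1.10 ± 0.13 (SE, adjusted p = 5.84e-05), and it was the only one of the 4 still called without CK replicates 1 and 2 (-0.97, adjusted p = 0.00371). The second AFB2 gene, Potri.017G061600, averaged 71.2 ± 11.4 TPM in OE leaves and 117 ± 17.9 TPM in CK (-0.72, adjusted p = 0.00215). The AFB5 genes averaged 27.7 ± 3.73 and 34.6 ± 6.07 TPM in OE leaves, against 40.3 ± 4.72 and 49.2 ± 5.03 TPM in CK, with log2 fold changes of -0.53 and -0.51 (adjusted p = 0.00412 and 0.00815). For each of the 4 genes the OE and CK libraries did not overlap. These 3 genes had, with CK replicates 1 and 2 left out, adjusted p-values of 0.0538, 0.0862 and 0.103.

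TIR1, the founding receptor of the family, is described in the table without the word auxin and so is not among the 132. Its 3 copies fell as well. Potri.004G033900 averaged 9.93 ± 3.05 TPM in OE leaves and 46.9 ± 7.68 TPM in CK (-2.16 ± 0.20, adjusted p = 1.27e-05). Potri.002G207800 averaged 4.04 ± 1.73 TPM in OE leaves and 21.7 ± 5.32 TPM in CK (-2.23, adjusted p = 4.18e-05). Potri.011G042400 showed a smaller difference, with 2.80 ± 0.437 TPM in OE leaves and 4.74 ± 0.879 TPM in CK (-0.59, adjusted p = 0.00267). The threshold was passed by 2 of the 3 without CK replicates 1 and 2.

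Of 18 Aux/IAA repressors, 11 were tested, and 6 fell, 1 rose and 4 did not pass (median -0.85). The 63.6% called stands beside 56.1% of all genes (34.0% lower and 22.1% higher). Line 2 and line 7 each had 5 lower and 1 higher, but the lower genes were not all the same. Their summed level averaged 320 ± 57.6 TPM in line 2 and 359.9 ± 200.3 TPM in line 7, against 618 ± 86.8 TPM in CK. Line 7 was uneven: its replicates 1 and 2 summed to 460.1 and 587 TPM and its replicates 3 and 4 to 147 and 245 TPM, while the CK libraries lay between 511 and 713 TPM. The ranges of OE and CK libraries overlapped through line 7 replicate 2, the OE library with the highest phloem and xylem marker sums.

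The IAA29-paired gene, Potri.006G255200, had the largest fall of the repressors. It was low in OE leaves, with 0.511, 0.912, 0.467 and 0.431 TPM in line 2 and 0.993, 3.56, 0.223 and 0.122 TPM in line 7, against 18.6, 15.96, 10.4 and 9.54 TPM in CK. All OE libraries lay below all CK libraries, and line 7 replicate 2 stood above the other OE libraries. The change was -3.04 ± 0.33 on the log2 scale (adjusted p = 4.36e-05). With CK replicates 1 and 2 left out this gene no longer met the expression filter, so it was not tested there.

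The repressor with the highest mean level was paired with IAA7, known in Arabidopsis from the auxin-resistant mutant axr2. Potri.010G078300 had 114, 85.5, 109 and 44.6 TPM in line 2, 164, 197, 21.5 and 54.2 TPM in line 7, and 305, 278, 263 and 227 TPM in CK. The groups did not overlap, but line 7 spanned from 21.5 to 197 TPM. Its log2 fold change was -1.71 ± 0.50 (adjusted p = 0.0138), and -1.58 without CK replicates 1 and 2 (adjusted p = 0.127). Both IAA13 genes fell: Potri.010G065200 averaged 0.99 ± 0.628 TPM in OE leaves and 4.11 ± 1.9 TPM in CK (-1.35, adjusted p = 0.00138), and Potri.008G172400 averaged 4.18 ± 2.73 TPM in OE leaves and 12.5 ± 4.21 TPM in CK (-1.46, adjusted p = 0.00323, and 0.0844 without CK replicates 1 and 2). Potri.010G065200 was the only Aux/IAA gene under the rule called without CK replicates 1 and 2 (adjusted p = 0.0372).

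Of 3 genes paired with IAA14, whose Arabidopsis counterpart acts in lateral root formation, 1 fell. Potri.005G218300 averaged 64.1 ± 19.2 TPM in OE leaves and 104 ± 6.0002 TPM in CK (-0.76, adjusted p = 0.0222), with adjusted p-values of 0.0562 under median ratio scaling and 0.122 without CK replicates 1 and 2. The call was also lost without CK replicate 1 or CK replicate 3 alone (adjusted p = 0.0556 and 0.0523), and line 2 alone gave no call. The IAA19 gene Potri.001G177500 averaged 1.90 ± 1.98 TPM in OE leaves and 5.80 ± 3.79 TPM in CK (-1.32, adjusted p = 0.0275, and 0.315 without CK replicates 1 and 2), and its groups overlapped. It was not called in line 7 alone (adjusted p = 0.115). IAA11 went the other way: Potri.002G256600 averaged 15.9 ± 1.68 TPM in OE leaves and 12.3 ± 0.426 TPM in CK (0.34, adjusted p = 0.00991), without overlap. That call was lost without CK replicates 1 and 2 (adjusted p = 0.0518). The IAA9 gene Potri.002G108000, at 83.3 ± 25.8 TPM in OE leaves and 86.1 ± 22.5 TPM in CK, did not pass (-0.06, adjusted p = 0.831).

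Another 17 Aux/IAA genes, recognised by their Arabidopsis locus and described without the word auxin, were all tested: 2 rose and 7 fell, with a median of -0.73. The 52.9% called was near the 56.1% of all genes (22.1% higher and 34.0% lower). With CK replicates 1 and 2 left out, 2 rose and 4 fell, where 15.8% of all genes rose and 12.6% fell. The IAA16 gene Potri.013G041400 averaged 77.8 ± 21.3 TPM in OE leaves and 198 ± 16.3 TPM in CK (-1.38, adjusted p = 0.000197). The IAA27 gene Potri.001G186100 averaged 14.0 ± 5.29 TPM in OE leaves and 39.6 ± 7.95 TPM in CK (-1.48, adjusted p = 0.000235). The IAA12 gene Potri.018G127800, whose Arabidopsis counterpart BODENLOS restrains ARF5 in the embryo, rose instead, with 38.3 ± 6.75 TPM in OE leaves and 16.1 ± 2.50 TPM in CK (1.19, adjusted p = 0.000128). For these 3 genes no OE library entered the CK range.

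**Figure D3:**
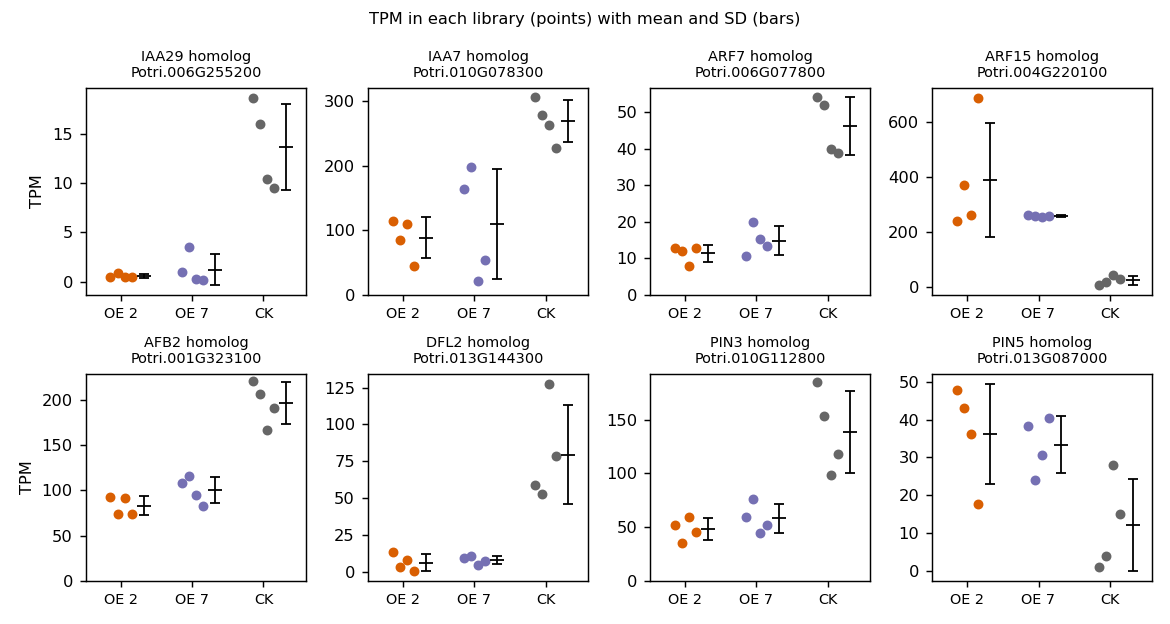
TPM of 8 auxin genes in every library (points), with the mean and SD of each group beside them, for OE line 2, OE line 7 and CK from left to right. The ARF15-paired and PIN5-paired genes have higher OE means, and the other 6 genes have lower OE means. The PIN5-paired gene is the only one of the 8 with overlapping groups.

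Of 41 ARF genes, 36 were tested, and 15 fell, 1 rose and 20 did not pass (median -0.34). The 44.4% called stands beside 56.1% of all genes (34.0% lower and 22.1% higher). ARFs are grouped by sequence and by the activity seen in Arabidopsis assays into class A activators (ARF5, 6, 7, 8 and 19), class B repressors and the class C of ARF10, 16 and 17, which the microRNA miR160 targets. Among 12 class A genes, 7 fell and 0 rose (median -0.74). Among 8 class C genes, 4 fell and 0 rose (median -0.48). Among 16 tested class B genes, 4 fell and 1 rose, and their median was -0.09, close to the -0.13 of all genes and 0.05 under median ratio scaling. Summed class A levels were 98.9 ± 6.14 TPM in line 2 and 116 ± 27.9 TPM in line 7, against 208 ± 54.6 TPM in CK. Line 7 replicate 2 had the highest class A sum of the OE libraries, at 157 TPM, which lay below every CK library. Within CK, replicates 1 and 2 had class A sums of 245 and 264 TPM and replicates 3 and 4 had 164 and 158 TPM. Without CK replicates 1 and 2, 4 class A, 4 class C and 0 class B genes fell, where 12.6% of all genes fell. The median over all ARFs was then -0.02. Leaving out CK replicate 1 alone left 2 class B genes lower.

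ARF7, which in Arabidopsis drives tropic growth and lateral roots, had the smallest p of the family. Potri.006G077800 had 12.8, 12.1, 7.97 and 12.8 TPM in line 2, 10.5, 19.9, 15.3 and 13.4 TPM in line 7, and 54.1, 52.0, 39.9 and 38.8 TPM in CK. The highest OE library, at 19.9 TPM, lay below the lowest CK library. The log2 fold change was -1.77 ± 0.18 (adjusted p = 2.53e-05), and -1.55 without CK replicates 1 and 2 (adjusted p = 0.00223). The ARF19 gene Potri.018G063000, the close relative of ARF7, averaged 3.67 ± 0.601 TPM in OE leaves and 7.53 ± 1.62 TPM in CK (-0.86, adjusted p = 0.000374). Of the 5 genes paired with ARF8, a regulator of flower and fruit growth in Arabidopsis, 4 fell, with log2 fold changes between -1.04 and -0.42. Of those 4, only Potri.005G207700 was still called without CK replicates 1 and 2 (-0.83, adjusted p = 0.0427).

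The miR160 class moved in part. Both ARF10 genes fell: Potri.004G211700 averaged 1.72 ± 0.435 TPM in OE leaves and 8.47 ± 3.12 TPM in CK (-1.75 ± 0.19, adjusted p = 4.59e-05), and Potri.009G014800 averaged 2.56 ± 0.389 TPM in OE leaves and 6.69 ± 2.85 TPM in CK (-1.04, adjusted p = 0.00156). Of 4 ARF16 genes, 2 fell. Potri.010G223200 averaged 11.8 ± 2.36 TPM in OE leaves and 28.1 ± 3.995 TPM in CK (-1.20, adjusted p = 8.19e-05). Potri.008G039000 averaged 16.1 ± 1.88 TPM in OE leaves and 24.6 ± 2.27 TPM in CK (-0.58, adjusted p = 0.000898). All of these 4 falls had no overlap between OE and CK libraries and kept their calls without CK replicates 1 and 2. Neither ARF17 gene passed.

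A single ARF gene rose, and by more than any other auxin gene. Potri.004G220100, paired with ARF15, had 239, 369, 261 and 687 TPM in line 2, 261, 259, 255 and 260.2 TPM in line 7, and 6.915, 19.7, 43.6 and 31.0 TPM in CK. The OE libraries lay far above the CK libraries, line 7 was nearly even, and line 2 replicate 4 was the highest of all. Its log2 fold change was 3.79 ± 0.41 (adjusted p = 3.95e-05), and 3.01 without CK replicates 1 and 2 (adjusted p = 0.000716). The mean TPM was 12.8 times as high in OE leaves as in CK. It held 324 ± 152 TPM of a class B sum of 600 ± 149 TPM in OE leaves and 25.3 ± 15.7 TPM of 358 ± 52.7 TPM in CK, while 4 other class B genes fell. The class B gene with the next level was an ARF2 gene, Potri.012G106100, which averaged 78.0 ± 8.84 TPM in OE leaves and 107 ± 17.0 TPM in CK (-0.44, adjusted p = 0.0098). ARF2 limits cell division and organ size in Arabidopsis. This call did not hold in line 7 alone (adjusted p = 0.0506) or without CK replicates 1 and 2 (0.187). The 3 genes paired with ARF3, a regulator of the lower leaf face in Arabidopsis, had log2 fold changes between -0.02 and 0.12, and none passed.

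**Figure D4:**
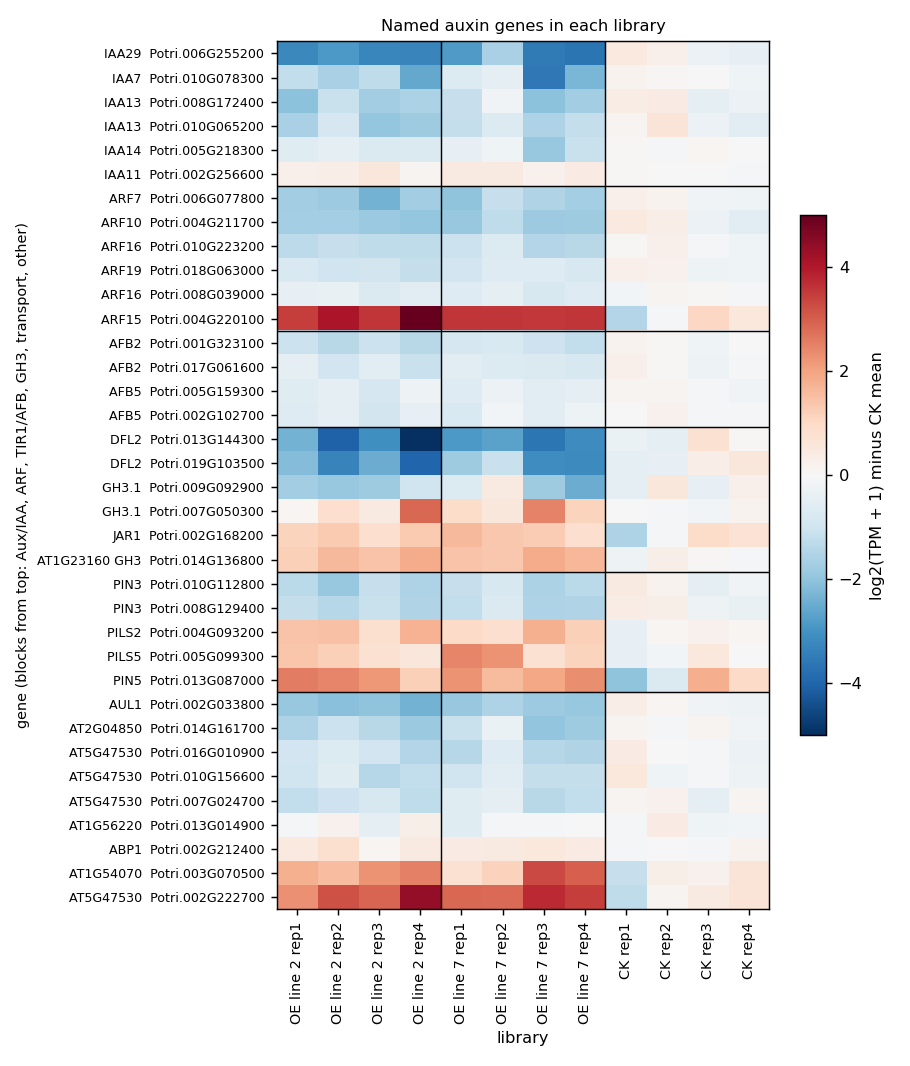
Log2(TPM + 1) minus the CK mean (colour, saturated at a difference of 5 either way) for 36 auxin genes chosen by the naming rule (down the page, in blocks by role) in every library (across, OE line 2, OE line 7, CK). Most receptor, Aux/IAA and ARF genes are blue in all OE libraries. The ARF15-paired gene, the AT1G23160-paired GH3 gene and the AT5G47530-paired gene Potri.002G222700 are red in all 8.

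Of 14 GH3 genes, 10 were tested, and 2 rose, 3 fell and 5 did not pass (median 0.32). The 50.0% called was near the 56.1% of all genes (22.1% higher and 34.0% lower). Their summed level was 143 ± 28.9 TPM in line 2, 169 ± 48.0 TPM in line 7 and 216.5 ± 79.8 TPM in CK, and the ranges overlapped. The pair of genes paired with DFL2, a GH3 gene that affects hypocotyl growth in the light in Arabidopsis, had the largest falls. Potri.013G144300 had 13.9, 3.575, 7.97 and 0.502 TPM in line 2, 9.28, 11.02, 5.19 and 7.70 TPM in line 7, and 59.2, 53.1, 128 and 78.5 TPM in CK. No OE library reached 14 TPM and no CK library was under 53 TPM. Its log2 fold change was -3.43 ± 0.50 (adjusted p = 0.000279). The second DFL2 gene, Potri.019G103500, averaged 2.30 ± 2.27 TPM in OE leaves and 16.9 ± 6.42 TPM in CK (-2.64, adjusted p = 0.00066). Both were larger without CK replicates 1 and 2, at -3.84 and -3.09 (adjusted p = 0.00527 and 0.00714).

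The GH3 gene that rose with the smallest p was Potri.014G136800, paired with AT1G23160. It had 3.17, 4.60, 3.88 and 5.515 TPM in line 2, 3.79, 3.56, 5.51 and 4.78 TPM in line 7, and 0.517, 1.22, 0.861 and 0.695 TPM in CK. Every OE library was above every CK library, at a low level. The log2 fold change was 1.55 ± 0.15 (adjusted p = 2.19e-05), and 1.57 without CK replicates 1 and 2 (adjusted p = 0.000847).

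The other GH3 gene that rose was paired with JAR1, which joins jasmonate, not auxin, to isoleucine. Potri.002G168200 had 72.3, 83.1, 59.6 and 82.5 TPM in line 2, 105, 85.1, 80.1 and 59.2 TPM in line 7, and 10.6, 31.3, 63.3 and 54.8 TPM in CK. CK replicates 3 and 4 lay within or near the OE range, and CK replicates 1 and 2 were low. The log2 fold change was 1.20 ± 0.38 (adjusted p = 0.0189) and only 0.38 without CK replicates 1 and 2 (adjusted p = 0.184). Among genes that conjugate auxin in Arabidopsis, a GH3.1 gene, Potri.009G092900, averaged 13.4 ± 11.6 TPM in OE leaves and 30.4 ± 10.9 TPM in CK (-1.36, adjusted p = 0.0239). That call was lost without CK replicates 1 and 2 (adjusted p = 0.144) and was not made in line 7 alone (0.0993). A second GH3.1 gene, Potri.007G050300, averaged 2.23 ± 2.64 TPM in OE leaves and 0.141 ± 0.107 TPM in CK (1.17, adjusted p = 0.0546). It was called with a pseudocount of 0.1 (2.64, adjusted p = 0.0123) and when line 2 replicate 1, 3 or 4 or line 7 replicate 2 was left out (0.87 to 1.33, adjusted p = 0.0327 to 0.0474). The tested GH3.6 and GH3.9 genes and the third GH3.1 gene did not pass, and the GH3.17 genes were below the filter.

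Of 29 transport genes, 19 were tested, and 3 rose, 7 fell and 9 did not pass (median -0.22). The 52.6% called was near the 56.1% of all genes (22.1% higher and 34.0% lower). Median ratio scaling gave 6 higher and 7 lower, where 29.0% of all genes rose and 28.5% fell. The split between directions thus depended on the scaling. Line 2 alone had 3 higher and 8 lower, where 18.8% of all genes rose and 32.4% fell. Line 7 alone had 3 higher and 3 lower, where 18.9% of all genes rose and 24.8% fell. Only 1 rose and 2 fell without CK replicates 1 and 2, where 15.8% of all genes rose and 12.6% fell. Without either of them alone, 3 rose and 3 fell. Leaving out CK replicate 1 or 2 alone called 44.4% or 45.3% of all genes in either direction. By carrier type, 5 of 9 tested PIN genes fell and 1 rose (median -0.93), both LAX2 genes fell, and of 7 tested PIN-LIKES genes 2 rose and 0 fell (median 0.33). Without CK replicate 1 or 2 alone, 3 PIN genes and no LAX2 gene fell. The PIN-LIKES (PILS) family are auxin carriers of the endoplasmic reticulum.

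PIN3, a carrier that redirects auxin in shoots of Arabidopsis, had 2 genes that fell alike. Potri.010G112800, the transport gene with the highest mean level, had 52.0, 35.1, 59.7 and 45.7 TPM in line 2, 59.3, 76.4, 44.7 and 51.9 TPM in line 7, and 185, 154, 98.9 and 118 TPM in CK. Potri.008G129400 had 13.4, 11.4, 14.0 and 10.5 TPM in line 2, 12.9, 19.2, 10.2 and 10.7 TPM in line 7, and 41.1, 39.2, 26.4 and 24.4 TPM in CK. In both genes all OE libraries lay below CK and line 7 replicate 2 was the highest of the OE libraries. The log2 fold changes were -1.36 ± 0.20 and -1.28 ± 0.19 (adjusted p = 0.000301 and 0.000296), and both calls held without CK replicates 1 and 2 (-1.04 and -0.96, adjusted p = 0.0116 and 0.0113).

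The LAX2 genes, for influx carriers with a role in vein patterning in Arabidopsis, averaged 1.73 ± 1.96 and 0.822 ± 0.725 TPM in OE leaves, against 6.20 ± 4.06 and 2.50 ± 1.49 TPM in CK (-1.48 and -0.92, adjusted p = 0.0261 and 0.0268). The PIN2 gene Potri.014G146800 averaged 6.40 ± 4.90 TPM in OE leaves and 16.8 ± 8.84 TPM in CK (-1.34, adjusted p = 0.0341). After leaving out CK replicates 1 and 2 the PIN2 and LAX2 calls were lost (adjusted p = 0.415 for PIN2, and 0.386 and 0.441 for LAX2). Line 7 alone gave no call for any of these 3 genes. The PIN sums were 114 ± 18.9 TPM in line 2, 132 ± 30.5 TPM in line 7 and 234 ± 53.3 TPM in CK. Mean phloem, xylem and division marker sums were lower in OE leaves as well, but the phloem and division ranges overlapped those of CK. A relation between the marker and PIN sums was not tested.

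Under the text rule, the 3 transport genes that rose were a PIN5-paired gene and 2 of 7 tested PILS genes. Both types sit in the endoplasmic reticulum in Arabidopsis. The share of PILS genes that rose, 28.6%, was near the 22.1% of all genes. Only 1 of the 3 calls held without CK replicates 1 and 2, so they do not establish a pattern by compartment. Transport genes outside the rule that rose are given below. The PIN5-paired gene Potri.013G087000 had 47.8, 43.2, 36.2 and 17.7 TPM in line 2, 38.3, 23.9, 30.7 and 40.3 TPM in line 7, and 1.02, 3.96, 27.9 and 14.96 TPM in CK. CK replicate 3 lay inside the OE range and CK replicates 1 and 2 were far below it. Its log2 fold change was 2.06 ± 0.58 (adjusted p = 0.0113) and 0.68 without CK replicates 1 and 2 (adjusted p = 0.185).

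Potri.004G093200, paired with AT1G71090 of the PILS family, had 20.4, 21.1, 12.9 and 25.0 TPM in line 2, 14.3, 13.3, 25.7 and 16.8 TPM in line 7, and 4.91, 7.45, 8.24 and 7.37 TPM in CK. All OE libraries were above CK (1.28 ± 0.21, adjusted p = 0.000542), and this rise was still called without CK replicates 1 and 2 (1.12, adjusted p = 0.0163). Potri.005G099300, paired with AT2G17500 of the same family, had 37.6, 32.5, 24.0 and 21.2 TPM in line 2, 80.7, 68.6, 24.2 and 30.7 TPM in line 7, and 10.3, 12.5, 20.5 and 13.9 TPM in CK. Its groups did not overlap (1.30 ± 0.32, adjusted p = 0.00523), but the call was lost without CK replicates 1 and 2 (adjusted p = 0.0997). The 12 PILS genes summed to 135 ± 13.6 TPM in line 2, 161 ± 38.4 TPM in line 7 and 97.6 ± 5.58 TPM in CK, and every OE sum was above every CK sum. Under median ratio scaling 5 of the 7 tested PILS genes rose, where 29.0% of all genes rose. The gene paired with BIG, a very large protein required for auxin transport, was at 19.8 ± 3.09 TPM in OE leaves and 20.1 ± 3.30 TPM in CK (-0.02, adjusted p = 0.906).

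**Figure D5:**
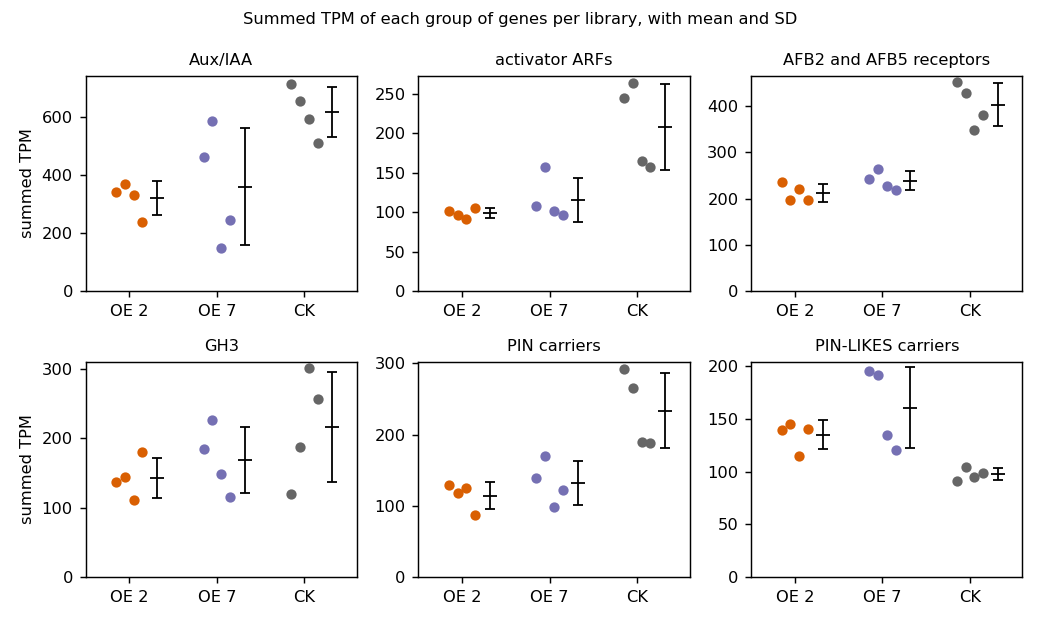
Summed TPM of 6 groups of auxin genes in every library (points), with mean and SD, for OE line 2, OE line 7 and CK from left to right. Receptors, class A ARFs (titled activator ARFs) and PIN carriers lie lower in all OE libraries than in CK, PIN-LIKES carriers lie higher, and the Aux/IAA and GH3 ranges overlap.

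Of 10 tested transport genes outside the text rule, 2 rose and 6 fell (median -0.63), where 22.1% of all genes rose and 34.0% fell. With CK replicates 1 and 2 left out, 2 rose and 4 fell (median -0.39), where 15.8% of all genes rose and 12.6% fell. The LAX3 gene Potri.005G174000, for an influx carrier, averaged 7.02 ± 2.65 TPM in OE leaves and 33.5 ± 5.28 TPM in CK (-2.19, adjusted p = 0.000134). The ABCB1 gene Potri.006G123900 averaged 20.8 ± 7.10 TPM in OE leaves and 61.9 ± 13.05 TPM in CK (-1.57, adjusted p = 0.000251). The ABCB19 gene Potri.017G081100 averaged 4.32 ± 3.601 TPM in OE leaves and 27.1 ± 9.30 TPM in CK (-2.57, adjusted p = 0.00039). ABCB1 and ABCB19 are ATP-driven auxin exporters of the plasma membrane. For all 3, OE and CK libraries did not overlap. The 2 tested genes that rose were both paired with ABCB4. Potri.002G187500 averaged 27.4 ± 8.68 TPM in OE leaves and 12.7 ± 2.30 TPM in CK (1.01, adjusted p = 0.0024). Potri.014G113000 averaged 7.21 ± 5.48 TPM in OE leaves and 0.626 ± 0.284 TPM in CK (2.08, adjusted p = 0.00218). Their groups did not overlap either. The ABCB4 calls and those of the 3 genes above held without CK replicates 1 and 2. Other ABCB4-paired genes were below the filter and so not tested, and they went both ways without overlap. Potri.010G003000 was lower, at 0.014 to 0.171 TPM in OE libraries and 0.973 to 3.38 TPM in CK libraries. Potri.014G113200 was higher, at 0.58 to 1.19 TPM in OE libraries and 0.112 to 0.358 TPM in CK libraries.

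Of the 26 remaining genes, 19 were tested, and 4 rose, 11 fell and 4 did not pass (median -0.79). The 78.9% called stands beside 56.1% of all genes (34.0% lower and 22.1% higher). Most of them carry the description auxin-responsive family protein, which in Arabidopsis covers membrane proteins with cytochrome b561 and DOMON domains. Of 10 tested, 8 fell and 1 rose (median -1.08). The gene that rose, Potri.002G222700, is paired with AT5G47530 and had 109, 204, 167 and 467 TPM in line 2, 165, 158, 299 and 246 TPM in line 7, and 8.38, 23.4, 29.9 and 34.4 TPM in CK. The lowest OE library, at 109 TPM, was well above the highest CK library (3.22 ± 0.41, adjusted p = 0.000127). Another 5 genes paired with the same locus fell, among them Potri.016G010900, at 0.869 ± 0.479 TPM in OE leaves and 3.04 ± 0.848 TPM in CK (-1.13, adjusted p = 0.000933), Potri.010G156600 (-1.03, adjusted p = 0.00162) and Potri.007G024700 (-1.001, adjusted p = 0.00195). Potri.014G161700, paired with AT2G04850, averaged 3.27 ± 1.84 TPM in OE leaves and 9.50 ± 1.16 TPM in CK (-1.39, adjusted p = 0.0015). In this family 7 fell and 1 rose without CK replicates 1 and 2, where 12.6% of all genes fell and 15.8% rose.

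The smallest p of all auxin genes belonged to a gene that the rule took only through the wording "auxin-like" in its description. Potri.002G033800 is paired with AUL1, an auxilin-like J-domain protein of clathrin uncoating. It had 1.28, 0.997, 1.08 and 0.651 TPM in line 2, 1.26, 1.94, 1.42 and 1.31 TPM in line 7, and 9.65, 7.96, 6.57 and 6.15 TPM in CK (-1.94 ± 0.14, adjusted p = 2.59e-06). OE and CK libraries were clearly apart. ABP1, once held to be an auxin receptor, rose slightly: Potri.002G212400 averaged 6.61 ± 1.01 TPM in OE leaves and 4.51 ± 0.486 TPM in CK (0.46, adjusted p = 0.00774, and 0.0859 without CK replicates 1 and 2). The dormancy/auxin associated gene Potri.013G014900 had the highest mean of these genes, at 324 ± 65.3 TPM in OE leaves and 345 ± 74.8 TPM in CK, and did not pass (-0.09, adjusted p = 0.691).

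Synthesis, release and repression of auxin signalling were covered by genes recognised by locus. Of 4 tested synthesis genes 2 rose and 2 fell, where 22.1% of all genes rose and 34.0% fell. The TAR2 genes, for the enzyme class that makes the auxin precursor from tryptophan, both rose. Potri.012G083300 averaged 21.96 ± 3.63 TPM in OE leaves and 4.63 ± 0.810 TPM in CK (2.02 ± 0.15, adjusted p = 3.71e-06), and Potri.015G081900 averaged 5.56 ± 1.19 TPM in OE leaves and 3.31 ± 1.02 TPM in CK (0.62, adjusted p = 0.0104). The YUC6 gene Potri.006G243400, for the next enzyme of the route, averaged 2.88 ± 1.12 TPM in OE leaves and 5.77 ± 1.83 TPM in CK (-0.82, adjusted p = 0.0116). With CK replicates 1 and 2 left out, 2 synthesis genes rose and 0 fell, where 15.8% of all genes rose and 12.6% fell. Without CK replicate 2 alone, 1 fell.

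Of 7 tested genes for release and breakdown of auxin, 2 rose and 0 fell, where 22.1% of all genes rose and 34.0% fell. The amidohydrolase genes IAR3 (Potri.003G045200) and ILL6 (Potri.005G178900) averaged 19.1 ± 3.57 and 19.0 ± 5.47 TPM in OE leaves, against 11.7 ± 2.50 and 7.70 ± 4.46 TPM in CK (0.67 and 1.34, adjusted p = 0.00443 and 0.00733). Both calls were lost without CK replicates 1 and 2, which left 0 calls in this group. A second IAR3 gene, Potri.010G035900, and a second ILL6 gene, Potri.002G082400, did not pass (0.39 and 0.20, adjusted p = 0.249 and 0.787). Of 10 tested TOPLESS co-repressor genes, 1 rose and 4 fell, 2 fell without CK replicate 1 or 2 alone and 1 without both. The calls with all libraries made up 50.0% of these genes, against 56.1% of all genes (22.1% higher and 34.0% lower). The TPR3 gene Potri.013G012100 averaged 11.9 ± 1.80 TPM in OE leaves and 24.3 ± 2.90 TPM in CK (-0.97, adjusted p = 0.000111). A second TPR3 gene, Potri.005G021700, did not pass (-0.31, adjusted p = 0.0608). Genes paired with TPR1 went both ways. Potri.006G257900 averaged 33.8 ± 4.61 TPM in OE leaves and 20.4 ± 4.27 TPM in CK (0.72, adjusted p = 0.00142). Potri.003G030000 fell (-0.37, adjusted p = 0.033), Potri.018G023800 and Potri.018G023900 did not pass, and Potri.006G258100 was below the filter. The only tested gene of the kinases that direct PIN placement, a WAG1 gene, did not pass (-0.90, adjusted p = 0.165), but it was called lower without line 7 replicate 2 (-1.18).

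Poplar carries many of these genes in pairs, and the copies of a pair did not always move by the same amount. For the 19 Arabidopsis loci with exactly 2 tested copies among the 132 genes, the difference between the log2 fold changes of the copies was tested by an exact two-sided permutation test over all 495 ways to divide 12 libraries into 8 and 4. This test was chosen after the data had been seen. The smallest p it allows is 0.00202. The copies differed for 9 loci at an exact permutation p adjusted over the 19 of under 0.05.

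Of these 9 loci, 5 were ARFs. For ARF6, Potri.018G145800 had 22.4, 15.4, 20.8 and 12.7 TPM in line 2, 25.7, 32.9, 11.995 and 14.9 TPM in line 7, and 48.1, 56.6, 41.6 and 40.1 TPM in CK, and fell (-1.27, adjusted p = 0.00163). Its copy Potri.011G091900 averaged 10.6 ± 2.25 TPM in OE leaves and 10.7 ± 3.6005 TPM in CK (0.02, adjusted p = 0.95). The copies differed by -1.28 (exact permutation p = 0.00202, adjusted 0.0064). For ARF7, Potri.006G138500 averaged 17.2 ± 5.31 TPM in OE leaves and 27.4 ± 10.7 TPM in CK (-0.61, adjusted p = 0.0617), and the copies differed by -1.16 with the same exact p. The ARF10, ARF17 and ARF5 copies differed by -0.72, -0.63 and 1.17, with adjusted exact permutation p-values of 0.0064, 0.011 and 0.0128. Neither ARF5 copy passed on its own: Potri.005G236700 averaged 5.54 ± 5.12 TPM in OE leaves and 1.89 ± 0.362 TPM in CK, and Potri.002G024700 averaged 2.24 ± 1.45 TPM in OE leaves and 3.05 ± 1.86 TPM in CK.

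The widest gap lay between the 2 genes paired with AT1G54070, a dormancy/auxin associated protein. Potri.003G070500 had 18.1, 15.4, 26.0 and 31.1 TPM in line 2, 8.64, 11.5, 54.7 and 43.3 TPM in line 7, and 1.52, 5.87, 5.55 and 7.79 TPM in CK, and rose (2.04, adjusted p = 0.00512). Potri.001G164800 had 23.5, 21.7, 13.9 and 45.9 TPM in line 2, 7.47, 24.6, 78.3 and 46.3 TPM in line 7, and 67.5, 127, 75.9 and 77.5 TPM in CK, and fell (-1.64, adjusted p = 0.0166). In both lines together the 2 genes moved in opposite directions. Without CK replicates 1 and 2 neither was called (1.60 and -1.50, adjusted p = 0.0808 and 0.134), and Potri.001G164800 was not called in line 7 alone (adjusted p = 0.0537). Within the OE libraries line 7 replicate 1 was lowest for both genes. The difference between them was -3.68 (exact permutation p = 0.00202, adjusted 0.0064).

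For JAR1, the copy described above and Potri.014G095500 differed by 1.31 (adjusted exact permutation p = 0.0064). Potri.014G095500 averaged 35.8 ± 7.52 TPM in OE leaves and 43.8 ± 22.5 TPM in CK (-0.11, adjusted p = 0.8) and was called lower without CK replicates 1 and 2 (-0.78, adjusted p = 0.0337). The AUL1 copies differed by 1.14 and the AFB2 copies by -0.38 (adjusted exact permutation p = 0.0064 and 0.0128). At the other end, the PIN3 copies differed by -0.08 and the AFB5 copies by 0.02 (adjusted exact permutation p = 0.631 and 0.838). With 2 control libraries the test cannot go below 0.0222, no pair passed without CK replicates 1 and 2 (smallest adjusted exact permutation p = 0.0603), and the 9 differences kept their signs. Reads shared between copies limit what such differences can show.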

How the data were processed

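Leaf RNA of 12 libraries (OE line 2, OE line 7 and CK, 4 each) was measured after oligo(dT)-primed cDNA synthesis, per the labels' protocols. The authors deposited TPM per gene. Per the submitters' processing notes, the tools were cutadapt, FastQC and Salmon. Their versions and settings, the build and the annotation were not given in the sources used here. Library totals were 999989.2 to 999995.5, so TPM keep no depth and a rise of some genes lowers the rest.

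Genes with at least 1 TPM in at least 4 libraries (24926) were fitted as log2(TPM + 1) in 3 groups with limma 3.58.1 (R 4.3.3, mean-variance trend), tested on simulated data first. P-values are two-sided, adjusted by Benjamini-Hochberg across the tested genes and called under 0.05. The auxin genes, marker lists and pathway lists were chosen with earlier results of these data known. Roles came from the paired Arabidopsis locus and otherwise from descriptions. The naming rule took, per role, up to 6 genes of smallest p in both OE lines against CK, the gene of highest mean TPM and up to 3 called genes against the majority direction (37 genes), and up to 3 per role from the pathway lists. Genes named beyond it (copies, ABCB4, ARF2, ARF5, ARF8, IAA9, IAA14, IAA19, JAR1, LAX2, PIN2 and BIG) were chosen after their values were seen. Alternatives were other pseudocounts, no filter, median ratio scaling, a replicate block and leaving out libraries. The copy tests and their alternatives were added after the data had been seen. Some transport genes are counted but their own values are not reported here. No sequences or coordinates were used.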

Additional observations from a re-analysis of the deposited data

Results flagged for a closer look

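Among 111 sets of 4 libraries of the named genes, 10 held a library far from the other 3, where chance gives about 1 in 20. In line 2, replicate 3 had 7.97 TPM of the ARF7 gene Potri.006G077800, against 12.1 to 12.8 TPM in the other replicates. Line 2 replicate 2 had 0.912 TPM of the IAA29 gene, against 0.431 to 0.511 TPM. Line 2 replicate 4 stood apart for both GH3.1 genes named here, with 13.9 TPM of Potri.009G092900, against 7.06 to 8.08 TPM, and 7.41 TPM of Potri.007G050300, against 0.223 to 1.06 TPM. In line 7, replicate 3 had 5.33 TPM of Potri.007G050300, against 0.663 to 1.46 TPM. Line 7 replicate 2 had 1.56 TPM of the auxin-responsive family gene Potri.016G010900, against 0.412 to 0.476 TPM. Line 7 replicate 1 had 221 TPM of the dormancy/auxin associated gene Potri.013G014900, against 324 to 341 TPM. In CK, replicate 2 had 456 TPM of that gene, against 295 to 320.2 TPM. CK replicate 1 had 4.06 TPM of Potri.010G156600, against 1.95 to 2.25 TPM, and CK replicate 4 had 5.23 TPM of the ABP1 gene, against 4.21 to 4.37 TPM.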

How the results depend on the processing

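No called auxin gene changed direction under median ratio scaling or without CK replicates 1 and 2. Pseudocounts of 0.1 and 5 gave 12 higher and 45 lower, and 11 higher and 46 lower auxin genes, and no filter gave 14 and 54 of 132. ARFs called higher numbered 3 with no filter and 2 under median ratio scaling, and transport genes called higher numbered 6 under median ratio scaling. Leaving out CK replicates 1 and 2 together, for which the cause was not tested, gave 5 higher and 23 lower auxin genes in both lines, 5 and 21 in line 2, and 5 and 14 in line 7. It gave 0 higher and 1 lower Aux/IAA genes, 8 lower ARFs, 1 higher GH3 gene, and 1 higher and 2 lower transport genes. Of the 37 genes of the naming rule, 14 were tested there and lost their call. The IAA29 gene is not among those 14, since it no longer met the expression filter. Leaving out 1 library at a time gave 10 to 16 higher and 37 to 50 lower auxin genes in both lines. In line 2 it gave 5 to 10 higher (7 without CK replicate 1, 6 without CK replicate 2, 5 without line 2 replicate 2). In line 7 it gave 23 to 42 lower (23 without line 7 replicate 4). ARFs called higher ranged from 1 to 2 and transport genes called higher from 3 to 5 (highest without line 2 replicate 1), and transport genes called lower from 3 to 8 (3 without CK replicate 1 or 2). The fit with the replicate number as a replicate block called 12 higher and 49 lower, 57 of them as without the block. The numbers were not taken as pairing, since nothing in the labels ties them and not every same-number pair was positive. Same-number correlations of deviations ran from -0.472 to 0.415, with 9 of 12 pairs over 0.1, and other-number correlations from -0.568 to 0.598, with 9 of 36 over 0.1. In 13 of 24 comparisons of a library with another group, its best correlate carried its own number, a hint from the data and not from the design.

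Some values that never passed changed sign. The log2 fold change of Potri.013G014900 was 0.0582 under median ratio scaling and 0.0807 without both CK replicates, and ran from -0.1578 to 0.0511 when 1 library was left out. The IAA13 copy difference was 0.38 at pseudocount 0.1. The AFB5 copy difference was -0.0371 without both CK replicates and ran from -0.0375 to 0.048 with 1 library left out, and the ARF9 copy difference from -0.0349 to 0.103. Copy pairs called numbered 8 to 14, and 0 without both CK replicates. Depth is unknown, and 33 auxin genes were too low to test.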

Other observations

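Some auxin genes of low or middling level showed values not covered above. The AIR12 gene Potri.002G249200, for a membrane protein first found as auxin-induced in Arabidopsis root cultures, averaged 87.3 ± 49.8 TPM in OE leaves and 104 ± 19.3 TPM in CK and did not pass (-0.44, adjusted p = 0.379). Of the nucleoporin genes named for suppressing auxin resistance, the SAR3 gene Potri.003G180100 averaged 7.97 ± 1.19 TPM in OE leaves and 5.66 ± 1.46 TPM in CK (0.45, adjusted p = 0.026) but was not called in line 2 or line 7 alone (0.0549 and 0.0522), and the SAR1 gene Potri.001G078600 did not pass (-0.30, adjusted p = 0.0757). The ARGOS gene Potri.007G146401, named for a regulator of organ size in Arabidopsis, averaged 8.65 ± 4.42 TPM in OE leaves and 4.62 ± 0.346 TPM in CK (0.66, adjusted p = 0.0824). Its 8 OE libraries ran from 4.04 to 17.7 TPM, and line 7 replicate 2 held the highest value. These genes were chosen after their values were seen.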
